A study of Drosophila melanogaster with 30 samples.

Results

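The comparison described here set 3 polyA+ libraries from flies heated to 37°C against 3 polyA+ libraries from flies kept at 25°C. These 6 libraries were taken by their labels from the 30 libraries of the study, which also covered 4°C, 10°C and 34°C and a second library type depleted of ribosomal RNA (rRNA−). By the labels and the methods, each library was made from a pool of 6 whole adult females of Canton S, a wild-type laboratory strain of Drosophila melanogaster, all reared at 25°C with equal day and night on a cornmeal and soy flour diet. A figure legend of the study gives another pool size, and the age of the flies is not given in the sources used here. For the 37°C group, a sealed glass tube of flies was placed in a water bath that warmed by 0.25°C per min and was held for 5 min at 37°C, while the 25°C group was handled alike without warming. Since whole flies were ground, a gene can fall or rise because fewer or more cells of a type gave RNA or because each cell held less or more of it, and these cannot be told apart. The 3 libraries of a group are biological replicates by their labels, so p-values measure the spread between libraries. That spread joins differences between pools of flies with those of library preparation, and these cannot be told apart.

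Heat unfolds proteins, and fly cells answer it through heat shock factor (Hsf), which drives transcription of genes for molecular chaperones. Hsp70 and its relative Hsp68 bind unfolded chains and release them with the help of DnaJ proteins and nucleotide exchange factors such as the BAG protein starvin, small heat shock proteins hold damaged proteins in a soluble state, and Hsp83 (the fly Hsp90) works with its own set of co-chaperones. Near the Hsp70 genes of chromosome 3R lie copies of the αγ-element, a repeat that is transcribed into noncoding RNA after heat shock.

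The counts used unless stated are the equalized counts, in which polyA+ reads were trimmed to 85 bp and drawn down in number, and they totalled 4093736 to 4971534 at 25°C and 4008813 to 4709550 at 37°C. The 150 bp full counts of the same libraries totalled 24076210 to 27845828 and 17557816 to 24978995. Among the 37°C libraries, replicates 1 and 2 stood apart from replicate 3 and from all libraries at 25°C. Replication-dependent histone genes took 0.0017% and 0.0024% of the full 85 bp counts in them, against 0.018% in replicate 3 and 0.0167% to 0.024% at 25°C, and the cuticle protein gene Acp65Aa had 1984 and 1505 CPM (counts scaled by library size and edgeR's TMM factors) against 26.1 in replicate 3 and 9.34 to 50.5 at 25°C. Of the other 9 polyA+ libraries, 10°C replicate 2 and 34°C replicates 2 and 3 showed the same low histone share (0.0028% to 0.0048%) and high Acp65Aa (696 to 1381 CPM), whereas the rRNA− libraries at 37°C, which bear the same replicate numbers, had Acp65Aa at 16 to 32.3 CPM. Counts of Y-linked genes and of the male RNA roX2 were 0 in all 6 libraries, and roX1, the other male RNA, had 3, 3 and 0 counts at 25°C and 0 in each library at 37°C. What sets replicates 1 and 2 apart was not tested, and results are therefore also given for replicate 3 alone against 25°C and for a fit with a term for the low histone share.

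Differential expression was tested with edgeR's quasi-likelihood method on the 15 polyA+ libraries. Genes were called when the p, adjusted by Benjamini and Hochberg, was below 0.05 and the change was 2-fold or more. Of 9257 genes tested, 348 were higher at 37°C (3.76%) and 15 were lower (0.162%). The unadjusted p was below 0.05 for 2429 genes, and the median log2 fold change over all tested genes was -0.18. Without replicate 1, 2 or 3 at 37°C, 31, 51 and 1182 genes were higher and 1, 1 and 633 lower. Without replicate 1, 2 or 3 at 25°C, 216, 18 and 20 genes were higher and 5, 1 and 1 lower. With replicate 3 as the only library at 37°C, 8 genes were higher and 0 lower, 264 genes had an unadjusted p under 0.05, and the lone library was assumed to vary like the other groups. With the term for the low histone share, 43 were higher and 1 lower.

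**Figure D1:**
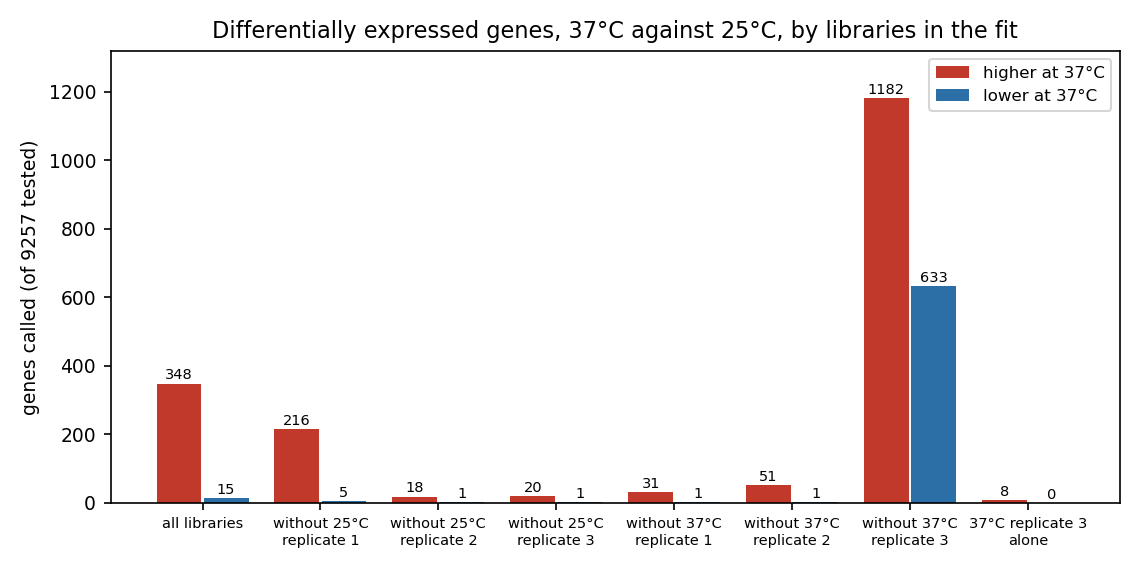
Number of genes called higher (red) and lower (blue) at 37°C than at 25°C, of 9257 genes tested, with all polyA+ libraries, with each of the 6 libraries left out in turn, and with replicate 3 as the only 37°C library. The counts run from 8 to 1182 higher and from 0 to 633 lower, and the fit without 37°C replicate 3 gives the highest bars.

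A set of 31 genes was called higher in the fit with all libraries and again without each of the 3 libraries at 37°C (0.335% of genes tested), and 1 gene, CG13315, was called lower in this way (0.0108%). In all 31, which were chosen by this contrast, the lowest library at 37°C lay above the highest at 25°C (18.9% of all genes tested). Their log2 fold changes ran from 2.07 to 11.1 with a median of 5.36, or 5.13 when the 3 genes without a count at 25°C were put at their lower bounds. They were also called by DESeq2's Wald test, in the fit with the term for the low histone share and in the 150 bp full counts, and 29 of the 31 held in the latter as well with each 37°C library left out. In replicate 3 alone all 31 had a positive log2 fold change, from 1.62 to 11.2 with a median of 3.9, and 8 of them were called. Replicate 3 was the lowest of the 3 libraries at 37°C for 29 of the 31 genes, and replicate 1 was the highest for 23. A smaller set of 15 of the 31, and CG13315, was also called without each library at 25°C.

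**Figure D2:**
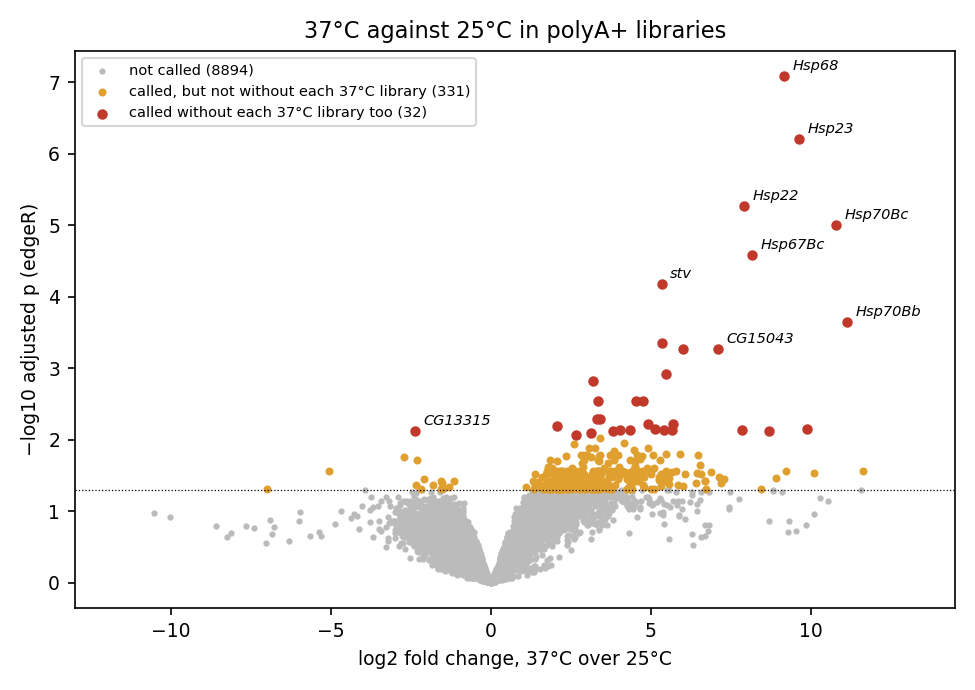
Log2 fold change of 37°C over 25°C (x axis) and −log10 of the adjusted p from edgeR (y axis) for the 9257 genes tested in polyA+ libraries, with the dotted line at an adjusted p of 0.05. The 32 genes called without each 37°C library too are in red, with Hsp68 at the top, and CG13315 is the one on the left side.

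Of the 31 genes, 10 belong to lists of heat shock genes and co-chaperones, and 21 do not. These 3 lists hold 33 genes, of which 30 passed the filter on low counts. Of the 30, 15 were called higher and 0 lower (3.76% and 0.162% of all genes tested). Being known heat shock genes, the members were listed with their response to heat in view. The Hsp70 copies and Hsp68 had a median log2 fold change of 10.3 (9.97 with Hsp70Ba at its lower bound, 4 of 4 tested genes called). The list of small heat shock proteins had 5.36 (6 of 9), and that of Hsp83, Hsf and the co-chaperones 0.59 (5 of 17). In replicate 3 alone these medians were 9.44, 4.42 and 0.48. With the term for the low histone share 4, 5 and 2 genes of the lists were called.

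Hsp68, an inducible relative of Hsp70, gave the smallest p of all genes. It had 11.7, 11.5 and 11.9 CPM at 25°C and 7444, 6939 and 5728 CPM at 37°C. The libraries within each group lay close together, and the groups were far apart. The rise was 573-fold in mean CPM, with a log2 fold change of 9.16 ± 0.46 (approximate SE from the test's F statistic, n = 3 and 3, adjusted p = 8.22e-08 by edgeR). Replicate 3 alone gave 8.91 (edgeR adjusted p = 8.33e-06).

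The Hsp70 genes of the fly are nearly identical copies, so the count of a single copy is uncertain, and the equalized counts hold few of their reads. Their 6 copies together had 1, 3 and 1 equalized counts at 25°C and 3280, 2944 and 2657 at 37°C. In the 150 bp full counts they had 885, 1277 and 1487 counts at 25°C and 533297, 546057 and 659079 at 37°C. Scaled to the library total, the latter were 35.6, 53 and 53.4 CPM against 29021, 31101 and 26385 CPM, a 609-fold difference in means (exact 2-sided permutation test, p = 0.1, the smallest that 3 against 3 allows). Among the heated libraries, replicate 3 was the highest in counts and the lowest in CPM.

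Of these, 3 copies passed the filter on equalized counts. Hsp70Bc (chromosome 3R, 12509076 to 12511461 of the dm6 assembly) had 1, 2 and 0 equalized counts at 25°C and 1222, 1215 and 1982 at 37°C, a ratio of 2010 with a 95% counting interval of 687 to 9750. Hsp70Bb (3R, 12505793 to 12508139) had 0, 1 and 1 counts against 1829, 1651 and 610, a ratio of 2790 (772 to 23000). Hsp70Ba (3R, 12465453 to 12467776) had 0 counts in each library at 25°C and 200, 71 and 53 at 37°C, at least 47.5-fold higher when 0 is taken as up to 3 counts per library. These intervals and limits cover counting error only. All 3 were called, with edgeR adjusted p of 1e-05, 2.3e-04 and 0.00707.

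The full counts placed most Hsp70 reads on other copies. Hsp70Ab (3R, 11958535 to 11960909) had 0, 1136 and 1316 counts at 25°C in the 150 bp table and 208407, 230419 and 310637 at 37°C, and Hsp70Bbb (3R, 12502510 to 12504856) had 31, 76 and 42 against 162517, 143761 and 207467. Both were called without each 37°C library in that table (edgeR adjusted p = 0.0101 and 0.00109 with all libraries) and were too low in the equalized counts to be tested, where Hsp70Bbb had 2, 3 and 1 counts at 37°C and Hsp70Ab 14, 1 and 3. Hsp70Aa had 773, 0 and 0 counts against 8053, 8921 and 24157 at 150 bp and was not called (adjusted p = 0.132). The division of reads among the copies thus differed between the tables, and the direction was the same for each copy.

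The 9 genes listed with the small heat shock proteins had libraries at 37°C all above those at 25°C (18.9% of all genes tested). The 4 that were called without each 37°C library lie in a cluster on chromosome 3L. Hsp23 (3L, 9381882 to 9382765) had 10.6, 12.2 and 11.4 CPM at 25°C and 13940, 8014 and 5427 CPM at 37°C (log2 fold change 9.64 ± 0.58, edgeR adjusted p = 6.19e-07). Among its heated libraries replicate 1 was well above the other 2. Hsp22 (9372931 to 9374964), whose product sits in mitochondria, had 14.2, 10.5 and 11.9 CPM against 3073, 3107 and 2740 CPM (7.92 ± 0.58, adjusted p = 5.39e-06), with heated libraries close together. It overlaps CG4456, another gene of this list, on the same strand, so reads of the pair could be split between them.

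Hsp67Bc (9371511 to 9372497), a partner of starvin in the autophagic removal of damaged proteins, had 0.848, 0.849 and 0.972 CPM at 25°C and 420, 214 and 161 CPM at 37°C (8.18 ± 0.70, edgeR adjusted p = 2.61e-05). Hsp67Ba (9377802 to 9379534) was at 2.12, 1.7 and 1.7 CPM and rose to 105, 78.5 and 47 CPM (5.36 ± 0.60, adjusted p = 4.5e-04). On the opposite strand, overlapping Hsp67Ba, lies asRNA:CR43481 (9378160 to 9381119), which was also among the 31 genes. It had 5.51, 3.9 and 6.08 CPM against 41.4, 68.8 and 43.9 CPM (3.31 ± 0.49, adjusted p = 0.00515) and was highest in replicate 2, whereas Hsp67Ba was highest in replicate 1. The libraries kept strand, but whether the counting used it is not stated in the sources used here, so reads of this pair may be mixed.

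The other genes of this list were not called without each 37°C library in the equalized counts. Hsp26, which fly ovaries also express without heat, had 1258, 953 and 1625 CPM at 25°C and 13920, 11280 and 7272 CPM at 37°C, a rise of 8.46-fold from a high start (3.08 ± 0.54, edgeR adjusted p = 0.0132, but 0.0614 without 37°C replicate 1). CG4456 had 1.49, 0 and 0 CPM against 14.1, 48.1 and 11.1 CPM (5.56 ± 1.29, adjusted p = 0.0347, 0.109 without replicate 1). In the 150 bp full counts CG4456 had 31, 14 and 13 counts at 25°C and 322, 157 and 222 at 37°C (edgeR adjusted p = 0.00426) and was called there without each 37°C library too. For l(2)efl, Hsp27 and CG14207 the log2 fold changes were 1.85 (adjusted p = 0.051), 1.68 (0.118) and 0.81 (0.186). Per length of exon, Hsp26 and Hsp23 reached 11280 and 10740 TPM at 37°C (counts scaled by exon length and library, mean of 3), against 3184 TPM for Hsp68 and 1663 TPM for Hsp22.

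Among the co-chaperones, stv and DnaJ-1 were called without each 37°C library. The BAG protein gene starvin (stv; 3L, 13477541 to 13483515) had 15.9, 13.1 and 11.7 CPM at 25°C and 587, 678 and 394 CPM at 37°C, a 40.8-fold rise (5.35 ± 0.50, edgeR adjusted p = 6.74e-05). DnaJ-1 (3L, 5750029 to 5752189), the main inducible Hsp40, had 61.7, 104 and 80.7 CPM against 1362, 1564 and 1117 CPM (4.03 ± 0.64, adjusted p = 0.00739). Hsp83 itself was abundant at 25°C, at 1784, 2075 and 1942 CPM, and reached 4380, 5069 and 5422 CPM, 2.56-fold more (1.36 ± 0.35, adjusted p = 0.0491). Its groups did not overlap, but the adjusted p was 0.149 without replicate 1 and 0.102 with the term for the low histone share.

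The Hsp90 partners mora (morgana) and CG1416, a homologue of the activator Aha1, also rose, with log2 fold changes of 1.38 ± 0.30 and 1.10 ± 0.28 (edgeR adjusted p = 0.0299 and 0.0459), and lost their calls without replicate 1 (0.153 and 0.213). Cdc37 and Stip1, further Hsp90 co-chaperones, had 1.03 (adjusted p = 0.0647) and 1.07 (0.0975), Hsp110 0.74 (0.194), Droj2 0.59 (0.199) and Fkbp59 0.40 (0.515). Below 0 were HIP-R (-2.50, adjusted p = 0.179), HIP (-2.27, 0.248), mrj (-1.87, 0.274), p23 (-0.87, 0.224), Hsf (-0.70, 0.353), Tpr2 (-0.70, 0.382) and jdp (-0.47, 0.578). Of the 17 genes in this list, 10 had all libraries at 37°C above those at 25°C and 5 had them all below, against 18.9% and 24.3% of all genes tested. The transcription factor Hsf was thus not among the genes called.

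**Figure D3:**
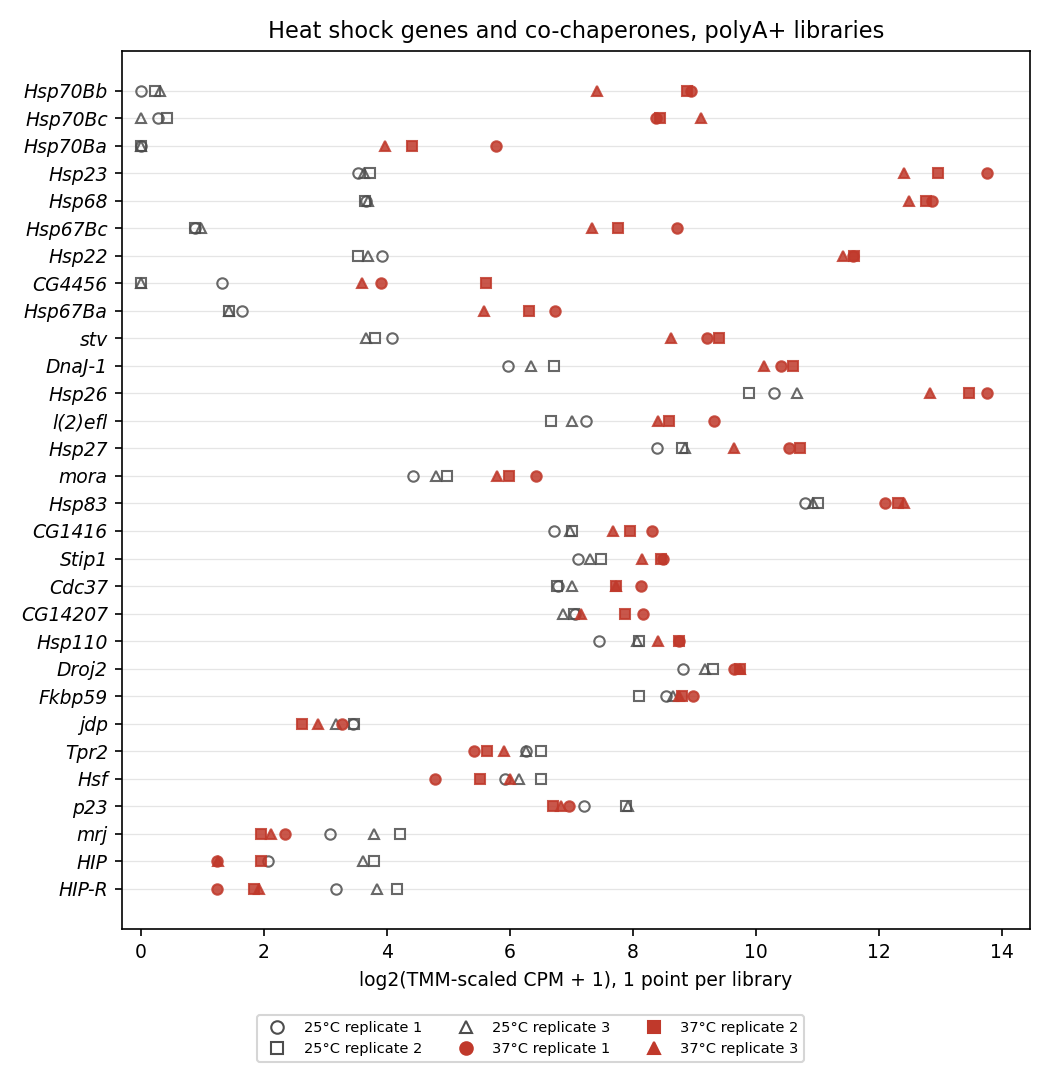
Log2 of TMM-scaled CPM plus 1 (x axis) in each of the 6 polyA+ libraries for the 30 tested genes of the 3 heat shock lists, ordered by fold change, with open symbols for 25°C, red symbols for 37°C and 1 shape per replicate number. The red symbols of Hsp68 sit at 5728 to 7444 CPM, far right of its open symbols at 11.5 to 11.9 CPM, while genes at the foot of the plot such as p23 and HIP lie to the left of their open symbols.

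The αγ-element RNA, lncRNA:alphagamma-element:CR32865 (3R, 12475336 to 12478267), lies between Hsp70Ba and Hsp70Bb. It had 0 equalized counts in each library at 25°C and 31, 30 and 17 at 37°C (edgeR adjusted p = 0.00739), at least 11.6-fold higher with 0 taken as up to 3 counts per library. In the 150 bp full counts it had 0, 0 and 6 against 1861, 1933 and 2774. The annotation places several transposon fragments in its span, so its reads may be shared with other copies of the repeat. It and asRNA:CR43481 were the noncoding RNAs among the 31 genes. In all, 173 lncRNA and antisense genes were tested, of which 4 were called higher and 1 lower (3.76% and 0.162% of all genes), with a median log2 fold change of -0.17.

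The other called noncoding genes were lncRNA:CR44608 (log2 fold change 3.40, edgeR adjusted p = 0.0489), asRNA:CR45955 (4.02, 0.0326) and, lower, lncRNA:CR45156 (-5.04, 0.0278), with 22, 13 and 22 counts at 25°C and 0, 0 and 1 at 37°C, so that its fitted value is no measure of size. lncRNA:Hsromega, the best known noncoding heat shock RNA of the fly, had 26.9, 20.4 and 23.6 CPM at 25°C and 51.7, 63.9 and 69.4 CPM at 37°C, named here after its values were seen. Its groups did not overlap, but it was not called (1.38 ± 0.52, adjusted p = 0.121). Of other noncoding genes that the study discussed, asRNA:CR44035 had a log2 fold change of -2.45 (adjusted p = 0.0534, and 0.0397 in the 150 bp full counts), lncRNA:CR31044 -1.19 (0.21) and lncRNA:CR32368 0.78 (0.485).

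Among the 21 genes outside the heat shock lists, 3 encode enzymes that clear foreign compounds. GstE7 (2R, 18406924 to 18407688), a glutathione transferase, had 2.12, 0.849 and 0.486 CPM at 25°C and 123, 69.9 and 35.3 CPM at 37°C (6.00 ± 0.70, edgeR adjusted p = 5.45e-04). GstO3 (3L, 8518885 to 8520295), of the omega class, had 22.1, 9.51 and 13.1 CPM against 236, 148 and 89.2 CPM (3.40 ± 0.51, adjusted p = 0.00515). Cyp12d1-p (2R, 11117225 to 11121884), a mitochondrial cytochrome P450, had 5.51, 4.07 and 3.89 CPM against 46.2, 55 and 36.7 CPM (3.35 ± 0.47, adjusted p = 0.00289). GstE7 and Cyp12d1-p also kept their calls without each library at 25°C.

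The families of these enzymes held further calls with all 6 libraries. Of 32 tested glutathione transferases, 11 were higher (3.76% of all genes), with log2 fold changes of 2.84 to 6.00 beside GstD7, which had a single count at 25°C, among them GstE1 at 10.8, 7.64 and 7.29 CPM against 106, 45.3 and 41.4 CPM (2.90 ± 0.53, edgeR adjusted p = 0.0166). Of 71 cytochrome P450 genes, 11 were higher, with 2.11 to 5.66, among them Cyp309a1 and Cyp6t3 (3.35 and 3.36, both with an adjusted p of 0.0278). The median of the glutathione transferases was 1.28 and that of the P450 genes 1.55, and in replicate 3 alone they were 0.52 and 0.42. With the term for the low histone share 2 and 1 genes were called, namely the 3 above.

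Several of the remaining genes are neighbours. CG15043 and CG15044 lie 1186 bp apart on chromosome X (18493193 to 18494168 and 18491185 to 18492006). CG15043 had 6.58, 1.87 and 3.89 CPM at 25°C and 1083, 437 and 163 CPM at 37°C (7.09 ± 0.83, edgeR adjusted p = 5.45e-04), and was called in replicate 3 alone (5.30, adjusted p = 0.00553). CG15044 had 1.27, 0.17 and 1.22 CPM against 66.2, 32.6 and 15.6 CPM (5.42 ± 0.85, adjusted p = 0.00731). In both genes the heated libraries were highest in replicate 1 and lowest in replicate 3, and none came near a control.

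CG6839 and CG3819 lie 1170 bp apart on 3L (18917581 to 18919259 and 18920430 to 18922108). CG6839 had 0.848, 0.849 and 0.972 CPM at 25°C and 66.5, 42.7 and 13.9 CPM at 37°C (5.48 ± 0.69, edgeR adjusted p = 0.0012). CG3819 had 4.88, 3.9 and 3.65 CPM against 231, 183 and 25.6 CPM (5.13 ± 0.80, adjusted p = 0.00707), with replicate 3 far under the other two, and in replicate 3 alone its log2 fold change was 2.60. On 2R, CG44250 (12950404 to 12952293) lies within CG44251 on the same strand, so that their reads cannot be told apart with certainty, and CG13321 (12953112 to 12955712) begins 818 bp further on. CG13321 had 39.2, 12.6 and 21.1 CPM against 965, 513 and 208 CPM (4.53 ± 0.63, adjusted p = 0.00289). CG44250 and CG44251 had log2 fold changes of 4.91 ± 0.74 and 5.68 ± 0.87 (adjusted p = 0.006 and 0.00615).

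CG11891 (3R, 25270209 to 25273267) overlaps CG11889 on the same strand, so its counts are uncertain. It had 5.3, 6.96 and 10.7 CPM at 25°C and 318, 236 and 62.8 CPM at 37°C (4.75 ± 0.65, edgeR adjusted p = 0.00289). CG5966 (X, 5988791 to 5992640) had 13.4, 20.2 and 17.7 CPM against 209, 166 and 91.9 CPM (3.18 ± 0.41, adjusted p = 0.00151), and both kept their calls without each of the 6 libraries. CG13748 (2R, 8940415 to 8941136) had 0 counts in each library at 25°C and 92, 35 and 15 at 37°C (adjusted p = 0.00755), at least 20.8-fold higher. Culd (3L, 8352355 to 8356296), a protein with CUB and LDLa domains, had 20.1, 14.9 and 14.8 CPM against 318, 272 and 110 CPM (3.81 ± 0.62, adjusted p = 0.00755).

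The last 5 of the 31 were CG32483, CG13324, CG5399, CG5290 and CG16721, with log2 fold changes of 5.68 ± 0.91, 4.34 ± 0.70, 3.14 ± 0.52, 2.65 ± 0.44 and 2.07 ± 0.32 and edgeR adjusted p of 0.00739, 0.00739, 0.00816, 0.00854 and 0.00656. CG16721 (X, 5879869 to 5883391) was the most highly expressed of them at 25°C, with 64.5, 48.6 and 54 CPM, and had 300, 227 and 173 CPM at 37°C. CG5290 (3L, 17909483 to 17912565) had 11.9, 17.8 and 16.8 CPM against 90.3, 116 and 86.9 CPM, so its replicate 3 was close to replicate 1. Hsp68, CG6839, CG16721 and CG5290 overlap genes on the opposite strand.

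**Figure D4:**
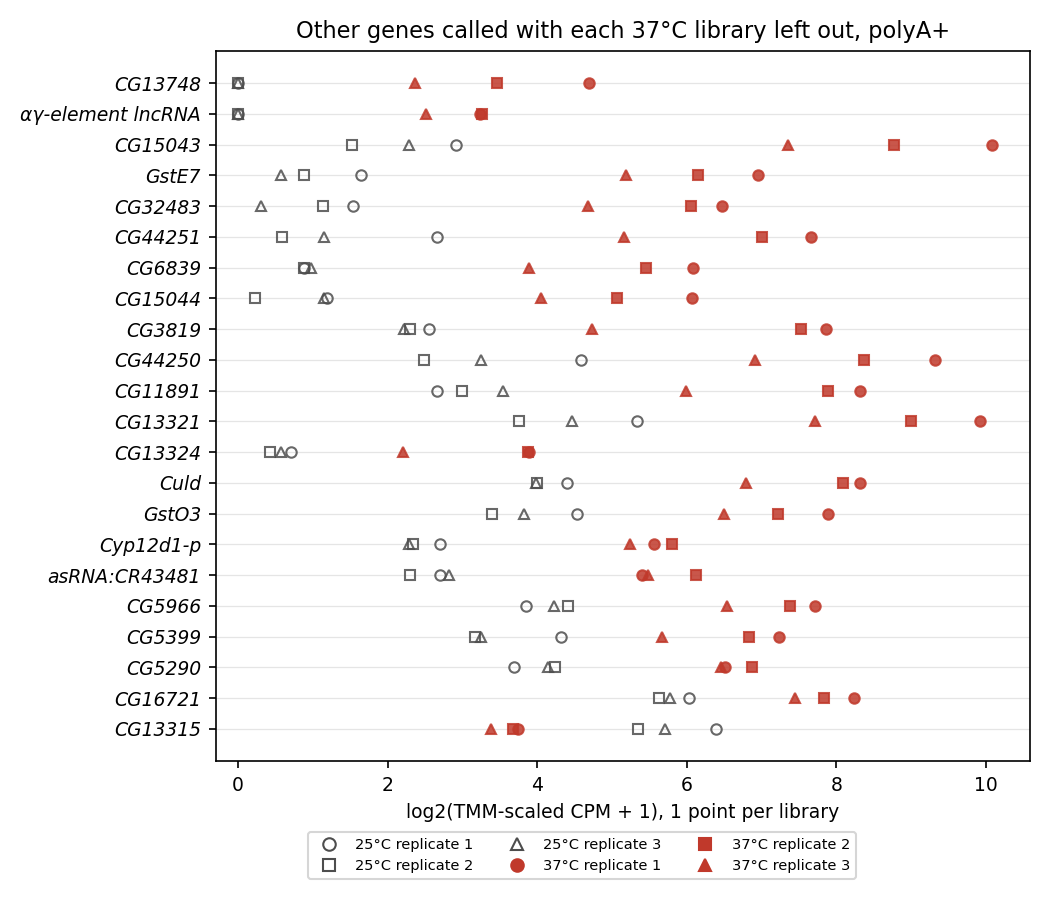
Log2 of TMM-scaled CPM plus 1 (x axis) in each of the 6 polyA+ libraries for the 21 genes outside the heat shock lists that were called higher without each 37°C library, and for CG13315, called lower, with open symbols for 25°C and red symbols for 37°C. Replicate 3 at 37°C (triangles) is the lowest red symbol in nearly all rows, as for CG3819 at 25.6 CPM against 231 and 183 CPM, and still lies right of the open symbols in all rows but CG13315.

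CG13315 (3L, 9096877 to 9097494) was called lower in every fit that left out 1 of the 6 libraries. It had 82.7, 39.6 and 51.3 CPM at 25°C and 12.4, 11.7 and 9.45 CPM at 37°C (-2.36 ± 0.38, edgeR adjusted p = 0.00755). All 15 genes called lower, likewise chosen by this contrast, had libraries at 37°C below those at 25°C (24.3% of all genes tested), and their log2 fold changes ran from -1.14 to -6.98. The other 14 lost their call without at least 1 library at 37°C. The gene with -6.98, pre-mod(mdg4)-G (adjusted p = 0.049), was at 0 in all 3 libraries at 37°C and had only 2.21 to 6.32 CPM at 25°C, so its fitted value is no measure of size. In the 150 bp full counts it had 64, 0 and 125 counts at 25°C and 14, 18 and 0 at 37°C, so that the groups overlapped (-1.52, adjusted p = 0.607), and it overlaps other mod(mdg4) genes on the same strand, which makes its counts uncertain.

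Among these 14, daw (dawdle, an Activin-like ligand) had 27.1, 19 and 16.3 CPM at 25°C and 1.89, 2.58 and 5 CPM at 37°C (-2.71 ± 0.51, edgeR adjusted p = 0.0177, 0.108 without 37°C replicate 1). Bcat, a branched-chain amino acid transaminase, had 60.7, 52.5 and 60.3 CPM against 5.95, 12.9 and 16.4 CPM (-2.30 ± 0.44, adjusted p = 0.0193, 0.0972 without replicate 1). In the 150 bp full counts daw and Bcat were the 2 genes called lower without each 37°C library, while CG13315 was called with all libraries (adjusted p = 0.0277) but not in each of these fits. Thor, the translation inhibitor 4E-BP and like daw a target of the transcription factor FOXO, had 97.6, 94.1 and 81.4 CPM against 32.7, 33.8 and 25.8 CPM (-1.56 ± 0.38, adjusted p = 0.0384). Of 16 tested genes of the insulin and FOXO list these 2 were called lower (0.162% of all genes), and 9 had no overlap in the lower direction (24.3% of all genes), with a list median of -1.01.

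The rest of the lower genes were called between adjusted p of 0.0355 and 0.0498 by edgeR. CG4953, Dlip2 and CDK2AP1 fell by 2.07, 2.33 and 2.17 on the log2 scale. CG13607, bisc, C1GalTA and galectin fell by 1.81, 1.55, 1.51 and 1.49, cpb (the actin capping protein β subunit) by 1.32 and Nadk1a (a NAD kinase) by 1.14. At 150 bp 8 of the 15 were called.

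Genes of digestion held further calls. Of 29 tested digestive serine proteases, which are secreted by midgut cells, 13 were higher (3.76% of all genes), with log2 fold changes of 2.54 to 5.79. Of the 29, 23 had no overlap in that direction (18.9% of all genes). The trypsin gene thetaTry had 13.6, 3.4 and 11.2 CPM at 25°C and 306, 243 and 87.2 CPM at 37°C (4.50 ± 0.89, edgeR adjusted p = 0.0235), and yip7 and Jon65Aiii had 2.54 and 3.36. Of 24 amylases, maltases, lysozymes and lipases 10 were higher, among them Amy-p, Amy-d and Mal-A2, with Amy-p at 27.1, 7.47 and 22.4 CPM against 1103, 798 and 310 CPM (5.28 ± 1.01, adjusted p = 0.0193). Of the 2 lists, 0 genes were called without each 37°C library.

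The summed CPM of the digestive proteases was 4150, 814 and 1729 at 25°C and 30150, 21880 and 8207 at 37°C, so replicate 3 lay above all controls but well under the other 2 heated libraries. The medians of the 2 lists were 3.19 and 2.69 with all libraries and 1.90 and 1.62 in replicate 3 alone, where 0 genes of either were called. In the rRNA− libraries, with 3 of 27 and 3 of 23 genes called higher (2.06% of all genes there), the medians were 1.21 and 0.52. Whether the lists differed between library types was not tested.

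Purine metabolism is a category that the study named from these samples and is therefore no independent choice. Of its 22 tested genes, 4 were higher (3.76% of all genes). The urate oxidase gene Uro, active in Malpighian tubules, had 5.94, 5.6 and 8.26 CPM against 103, 72.2 and 30.3 CPM (3.37 ± 0.63, edgeR adjusted p = 0.017), and the nucleotidase gene veil had 13.8, 5.77 and 5.59 CPM against 122, 96.5 and 48.9 CPM (3.41 ± 0.57, adjusted p = 0.00949). Adgf-D and pug had 1.82 and 1.86 (adjusted p = 0.0425 and 0.0485). Without 37°C replicate 1 the edgeR adjusted p of Uro and veil were 0.0876 and 0.0501, and the list's median was 0.84, or 0.52 in replicate 3 alone. With the term for the low histone share 0 of the 22 were called. In the rRNA− libraries 0 of 22 were called higher (2.06% of all genes there), with a median of 0.13.

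Stress genes of other kinds gave few calls (3.76% of all genes tested were called higher). Of the Turandot genes, humoral stress peptides, TotA and TotC were called of 3 tested (4.69 ± 1.04 and 4.40 ± 1.08, edgeR adjusted p = 0.0301 and 0.0405), with TotC at 140 CPM in replicate 1 and 21.8 and 10.6 CPM in the others. Among the metallothioneins MtnB was called (4.44, edgeR adjusted p = 0.0326). Among 15 immediate early and JNK genes Ets21C was called (2.45, 0.0455), while the median of this list was -0.75. Ets21C overlaps nAChRbeta3 on the opposite strand, so its reads may be mixed with those of that gene. Of 22 antimicrobial peptide genes 0 were called. Their median log2 fold change was 0.90, with 17 of the 22 positive, while the most counted member, Drs, had -0.99 (0.26). None of 14 constitutive Hsc70, Hsp60 and related chaperones was called, with a median of 0.41 and Hsc70-4 at 2923, 3629 and 2948 CPM against 7986, 6714 and 5647 CPM (1.10 ± 0.33, adjusted p = 0.0697).

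Lists for protein quality control beyond the chaperones had 0 genes called in each. The 32 proteasome genes had a median of -0.11 (Prosbeta5 0.22, edgeR adjusted p = 0.814), the 24 ubiquitin and autophagy genes -0.32 (Uba1 -0.21, 0.66), the 21 endoplasmic reticulum stress genes -0.14 (ERp60 0.13, 0.852) and the 20 antioxidant genes 0.41 (the maternal thioredoxin dhd -1.24, 0.257). Among hormone and clock genes 0 of 22 juvenile hormone and ecdysone genes were called. Their median log2 fold change was -0.59, with 9 of the 22 positive, while the most counted member, Jheh2, had 1.00 (0.145). Of 11 clock genes only the photoreceptor cry was called (2.09 ± 0.52, 0.0438), beside 3.76% of all genes called higher. The median of the clock list was -0.455, with 3 of the 11 positive, and vri had -1.50 (0.114).

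Markers of tissues moved with the libraries that stood apart, and their part in the results above was not tested. The 9 chorion genes, made by follicle cells, summed to 28590, 16200 and 31450 CPM at 25°C and 13.2, 2750 and 22640 CPM at 37°C, and the 36 tested maternal germline genes to 5309, 8020 and 6799 against 1827, 3017 and 5549. The 28 muscle sarcomere genes summed to 11340, 6644 and 7059 against 47540, 38510 and 10480, with flight muscle Act88F at 120, 48.9 and 36.2 CPM against 9253, 6706 and 212 CPM. Replicates 1 and 2 were thus far from the controls in these lists, and replicate 3 lay within their range. In the rRNA− libraries the muscle sum was 19850 to 27010 at 25°C and 21210 to 25230 at 37°C.

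None of the genes in these 3 lists was called. Their medians were -1.56, -1.13 and 1.33 with all libraries, against -1.09, -0.50 and -0.02 in replicate 3 alone. Named members were Cp36 (-2.17 ± 1.33, edgeR adjusted p = 0.29), CycB (-1.23, 0.247) and Mlc2 (2.44, 0.0801). Acp65Aa and Act88F, named after their values were seen, had 5.60 ± 1.86 (0.0882) and 6.30 ± 1.70 (0.0536). The myofilin gene Mf had 0.42 (0.481).

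Other tissue lists held 0 to 3 calls each (3.76% of all genes tested were called higher). Yolk proteins, made by fat body and follicle cells, were above all controls in each heated library, with sums of 11250, 12100 and 9030 CPM at 25°C and 23660, 37720 and 38730 CPM at 37°C. Yp2 was called (2.32 ± 0.51, edgeR adjusted p = 0.03) and Yp1 was not (1.15 ± 0.41, 0.107), and in the sum replicate 3 was as high as replicate 2, whereas Yp2 had 10080 CPM in replicate 3, the lowest of its heated libraries. Of 18 photoreceptor genes Rh5, Rh6 and Arr2 were called (4.26, 3.18 and 2.24), and of 17 fat body genes Gnmt (5.10, 0.0491). Of 25 odorant binding proteins Obp83ef was called (3.20, 0.0396), and of 17 neuron and synapse genes nAChRbeta3 (3.25, 0.0396). Of 8 vitelline membrane genes 0 were called (Vm26Aa 1.36, 0.123). The median log2 fold changes of these lists were 1.71, 0.83, 1.10, -0.70 and 1.32 in this order. In the neuron and synapse list 6 of the 17 genes had a positive log2 fold change. The gene nAChRbeta3 overlaps Ets21C on the opposite strand, so reads of this pair may be mixed.

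**Figure D5:**
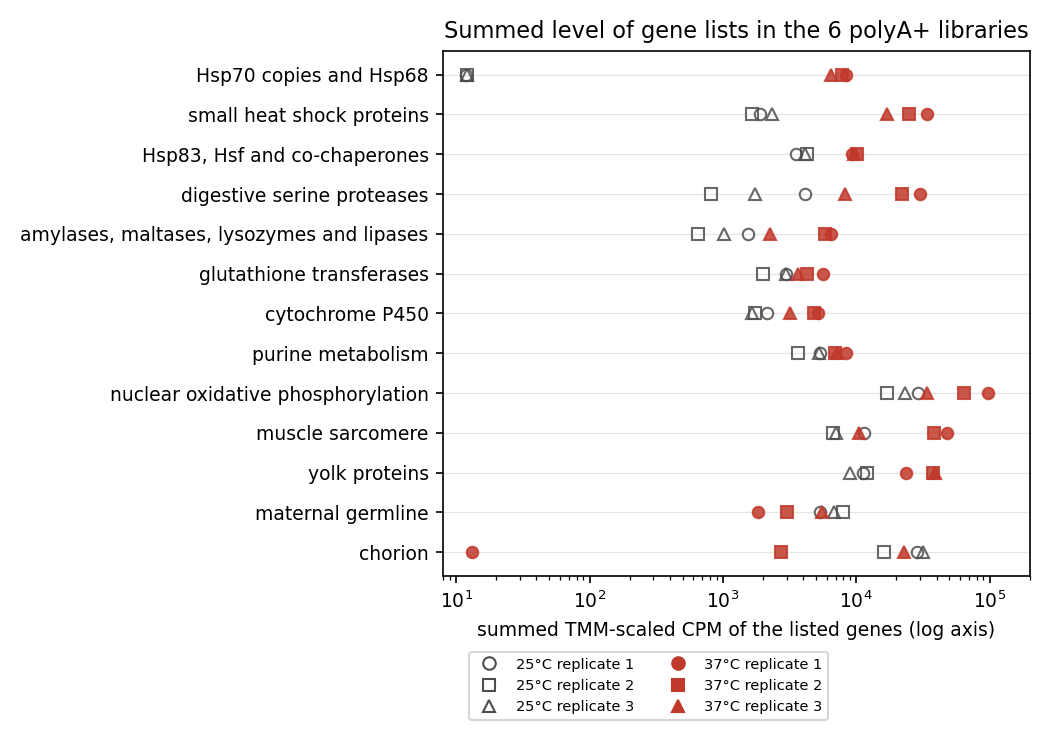
Summed TMM-scaled CPM (x axis, log scale) of 13 gene lists in each of the 6 polyA+ libraries, with open symbols for 25°C, red symbols for 37°C and 1 shape per replicate number. All lists but those of chorion, maternal germline and muscle genes lie right of the controls in all 3 heated libraries. For chorion, maternal germline and muscle genes replicates 1 and 2 (circle and square) stand away from replicate 3 (triangle), as for the chorion genes at 13.2 and 2750 against 22640 CPM.

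Nuclear genes of oxidative phosphorylation were higher in summed CPM, with 0 called. All 68 tested nuclear genes of oxidative phosphorylation had a positive log2 fold change and 53 had no overlap in that direction (18.9% of all genes), and their sums were 28840, 17020 and 23020 CPM at 25°C and 96570, 63990 and 33980 CPM at 37°C. The list's median was 1.54, or 0.63 in replicate 3 alone and 0.29 in the rRNA− libraries, with ATPsynC at 0.21 (edgeR adjusted p = 0.727). Of 20 genes listed under glycolysis, a list not limited to the enzymes of glycolysis itself, only Tps1 was called (1.93 ± 0.49, 0.0472). Over all genes 3.76% were called higher, and the list's median was 1.15. Of 12 mitochondrial genome genes mt:ND2 was called (6.87 ± 1.48, 0.0282), at 2.04 to 6.15 CPM in controls and 391.6, 877 and 6.39 CPM at 37°C, so that replicate 3 barely left the control range. The sums of this list were lower in the heated libraries, at 154200, 155900 and 160300 CPM at 25°C and 49780, 92880 and 65810 CPM at 37°C, while its median log2 fold change was 0.13 with all libraries and -0.65 in replicate 3 alone. The mitochondrial large ribosomal RNA took 12.4%, 16% and 14.1% of the counts at 25°C and 2.18%, 5.24% and 4.5% at 37°C (exact 2-sided permutation test, p = 0.1, the smallest possible), with a log2 fold change of mt:lrRNA of -1.52 ± 0.76 (edgeR adjusted p = 0.212).

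Ribosomal protein genes had small medians, 0.49 over 86 cytosolic (sta 0.73, edgeR adjusted p = 0.381) and 0.18 over 72 mitochondrial genes (mRpL12 -0.16, 0.851), with 0 called in either list. The 2 small nucleolar and nuclear RNAs tested were not called (snoRNA:Psi18S-531 -0.20, 0.859). Fold changes also followed transcript length. Over 5 groups of genes by exon length, the median log2 fold change went from 0.23 in the shortest (median 826 bp) to -0.72 in the longest (5672 bp), and from 0.24 to -0.65 in replicate 3 alone. The 31 genes had a median length of 1900 bp, against 2041 bp for all tested genes, and all were called after the trend on length was removed.

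In the 150 bp full counts 10845 genes were tested, of which 530 were higher (4.89%) and 19 lower (0.175%), and 48 higher genes held without each 37°C library (0.443%). The log2 fold changes of the 31 genes in this table had a median of 5.46. By the rule for naming, 6 genes held here that the equalized counts did not call. Besides Hsp70Ab and Hsp70Bbb these were Balat, a β-alanine transporter, with 3, 2 and 1 counts at 25°C and 119, 70 and 51 at 37°C (edgeR adjusted p = 0.00805), the gustatory receptor gene Gr89a with 0 counts against 78, 45 and 20 (0.00812), the mucin gene Muc55B with 1, 0 and 0 against 18, 10 and 15 (0.0101), and asRNA:CR44321 with 26, 46 and 22 against 122, 117 and 159 (0.0111). In the equalized counts the first 3 were too low to be tested, and asRNA:CR44321 missed the threshold (2.34 ± 0.64, 0.0561).

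At 34°C, compared with the same 25°C libraries, 8 genes were called higher (0.0864%), and all 8 were among the 31. They were Hsp68, Hsp23, Hsp22, Hsp70Bc, Hsp67Bc, stv, Hsp70Bb and GstE7. Hsp68 had 2011, 1961 and 2139 CPM at 34°C, Hsp23 1652, 985 and 981, and stv 185, 208 and 391, each between the levels at 25°C and 37°C. The 31 genes had log2 fold changes against 25°C of 1.3 to 10.0 (median 3.39) at 34°C, beside 2.07 to 11.1 (median 5.36) at 37°C, and both sets of values share their controls.

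In the rRNA− libraries, whose 37°C replicates did not split by Acp65Aa, 30 of the 31 genes were tested and 29 were called higher (2.06% of all genes), with a median log2 fold change of 3.31. These libraries bear the same replicate numbers and may come from the same pools of flies. CG13315 was called lower there too (-1.81, edgeR adjusted p = 0.0169). Of all 348 genes called higher in polyA+ libraries, 331 were tested in rRNA− libraries and 116 were called higher there. Of the 15 genes called lower in polyA+ libraries, 6 were called lower in rRNA− libraries (0.494% of all genes tested there). An interaction term in a fit of all 30 libraries and 10103 genes tested whether the response differed by library type, and 1 gene had an adjusted p below 0.05 (0.0099%). This was CG6839, with a log2 fold change of 5.48 in polyA+ and 1.13 in rRNA− libraries, where it had a mean of 7.95 CPM at 25°C and 17.4 CPM at 37°C (interaction 4.44, edgeR adjusted p = 0.0242). For 25 of the 30 genes tested in both the log2 fold change was larger in polyA+ libraries, without a called difference for any other of them.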

How the data were processed

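The data were gene counts from polyA+ libraries of pools of 6 flies. The authors deposited whole-number read counts per gene, not normalized, in an equalized table (rRNA reads removed, polyA+ reads trimmed to 85 bp and drawn down in number) and a full table (85 and 150 bp). Reads were aligned to dm6; the submitters' processing notes name STAR 2.7.7a, Salmon 1.4.0 and DESeq2 in R 4.2.2, and which tool made the counts is not stated. Each table lists 17807 genes, of which 97 without a symbol held 0.244% to 0.335% of a library's counts in this comparison. Groups came from the sample labels.

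Differential expression used edgeR 4.0.16 (limma 3.58.1, R 4.3.3) on the 15 polyA+ libraries, with TMM scaling, filterByExpr on the 5 temperatures, robust quasi-likelihood tests and Benjamini-Hochberg adjustment over all genes tested. The common biological coefficient of variation was 0.538. A gene was held when called with all libraries and without each 37°C library. The alternatives were DESeq2 1.42.0, other scalings, filters, tables and sets of libraries. The term for the histone share marked libraries under 0.01% histone counts. The procedure was tested on simulated counts. CPM were TMM-scaled, and TPM used exon lengths of Ensembl release 115 (17710 genes). Plots used matplotlib 3.10.9. In parentheses, values after a log2 fold change are edgeR adjusted p.

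The members and the gene lists were chosen with earlier results of these data known. Genes named were those held (at most 30 higher by smallest p, with CG5290 added as the last of the 31), up to 15 lower, up to 6 held only at 150 bp, the heat shock lists, up to 3 called genes of each other list or else its most counted member, and genes the study names; others are marked. One list, of testis and accessory gland genes, had 3 tested members, Acp65Aa among them by its name alone, and 0 calls; histone genes had 0 tested. Splicing, isoforms and ontology enrichment were not analysed here.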

Additional observations from a re-analysis of the deposited data

Results flagged for a closer look

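The response of CG6839 to 37°C differed between library types. Its log2 fold change was 4.44 larger in polyA+ than in rRNA− libraries (interaction in edgeR over all 30 libraries, adjusted p = 0.0242), with all 3 heated libraries above all 3 controls in both types (5.77, 8.83 and 9.25 CPM at 25°C and 20.98, 15.19 and 16.02 CPM at 37°C in rRNA−). The call was lost when any 1 replicate at 25°C or 37°C other than 37°C replicate 3 was left out of both library types. A block for temperature and replicate number also removed the call. CG3819, the neighbour of CG6839, had an interaction of 4.02 (edgeR adjusted p = 0.151). In the polyA+ libraries CG6839 was highest in replicates 1 and 2 at 37°C (66.5 and 42.7 CPM, against 13.9 in replicate 3), the libraries of low histone share, and the part of this in the difference was not tested.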

How the results depend on the processing

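The counts of 348 higher and 15 lower genes moved with most settings. Higher genes numbered 530 in the 150 bp and 556 in the 85 bp full counts, 1400 by DESeq2, 689 with RLE size factors, 83 with library totals, 885 with only the 6 libraries, 1631 with all 30 libraries, 618 with the length trend removed (added after seeing the data), 43 with the histone term and 8 with 37°C replicate 3 alone. Lower genes numbered 178 by DESeq2, 7 with library totals, 9 without the low-count filter, 386 with the 6 libraries, 857 with all 30, 46 with the length trend removed, 1 with the histone term and 0 with replicate 3 alone. Leaving out 1 library gave 18 to 1182 higher and 1 to 633 lower genes. The median over all genes was -0.50 with library totals and -0.02 with RLE size factors, against -0.18.

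The 31 held genes became 48 at 150 bp, 411 by DESeq2, 9 with the 6 libraries, 17 with the histone term and 15 when calls without each 25°C library were also asked for. The 1 held lower gene became 2 at 150 bp, 11 by DESeq2, 0 with RLE size factors and 0 with the 6 libraries. At 150 bp, 530 higher and 19 lower genes became 1644 and 213 by DESeq2, 964 and 444 with the 6 libraries, 70 and 4 with the histone term, 13 and 0 with replicate 3 alone, and 23 to 1579 and 2 to 558 with 1 library left out. The 1 interaction call became 0 to 554 with 1 pool left out. Of the 31 genes, 13 and 12 lost their call without 25°C replicate 2 and 3, 23 with replicate 3 alone and 1 with library totals; none changed direction.

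Replicate numbers were shared between the groups, but same-numbered libraries did not deviate together in each pair (correlations 0.417, -0.063 and 0.236), so the numbers were not taken to pair them. With a replicate block 211 genes were higher and 12 lower, 20 higher and 0 lower genes held, and 0 interaction calls were left; 37°C replicate 2 correlated best with 25°C replicate 1.

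Genes that were not called changed sign in places. Prosbeta5, ERp60 and ATPsynC had -0.0823, -0.18 and -0.109 with library totals, ATPsynC -0.367 with the histone term and -0.153 with replicate 3 alone, mRpL12 0.333 and 0.335 in these and -0.495 to 0.0066 with 1 library left out, Uba1 0.325 with the length trend removed and snoRNA:Psi18S-531 0.0869 with the histone term. The spread between the 3 libraries of a group limits what could be called, and whether it arose between pools or in preparation was not tested.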
